A study of Homo sapiens with 8 samples.

Results

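Immediate early genes were followed in the total RNA (T) and in the Ago2-immunoprecipitated RNA (IP) of the Hodgkin lymphoma cell line L1236. The 10 genes were chosen by name with earlier results of these data known, so counts set beside all genes are description only. The 10 genes are CD69, FOS, FOSB, JUN, JUNB, EGR1, EGR2, IER2, IER5 and DUSP1. They were measured by 13 of the 41000 probes on the array, and are 10 of the 16545 genes that could be named. L1236 cells were transduced with the pMSCV-PIG vector, either empty (EV) or carrying a sponge construct for miR-155, and in both populations the cells positive for GFP were sorted. IP is the RNA precipitated with Ago2 by an antibody, and T is the total RNA of the same population. The 4 groups (EV T, EV IP, sponge T and sponge IP) hold 1 RNA sample each, from 1 cell line, so that the design allows no test and no p-value. Each RNA was labelled with Cy3 and with Cy5, and IP and T of one population were hybridised together in both dye orientations, which gave 4 two-colour arrays and 8 channels. Values are log2 signals after quantile normalisation over the 8 channels, IP/T is the IP signal over the T signal of one population, and values after ± are SDs, taken over both dye orientations (for IP/T) or over both dyes (for T or IP alone). These SDs hold labelling and hybridisation error alone, since no culture or precipitation was repeated. Each SD rests on a single pair of values, so a very small one is not a measure of precision.

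Immediate early genes are transcribed within minutes of a growth factor, cytokine or stress signal, from factors that already lie in the cell, and their messengers are short-lived. FOS and JUN proteins pair to form the transcription factor AP-1, which is known for its strong activity in Hodgkin lymphoma cells. Ago2 is the protein that holds a microRNA and, through it, the messengers that the microRNA pairs with. A high IP/T ratio marks a transcript that is over-represented in the RNA precipitated with Ago2. The sponge is a transcript with binding sites for miR-155, built to compete with its natural targets. How much miR-155 it bound in these cells was not measured on the arrays.

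The microRNA that the sponge was built to bind is shown with its seed, bases 2 to 8, in capitals. The seed is the stretch that pairs with a target. Whether the members hold sites for this seed was not examined. The sequence of the microRNA was taken from RefSeq (GRCh38.p14, chr21:25573983-25574006, + strand).
hsa-miR-155-5p: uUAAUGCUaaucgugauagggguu

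Promoters from RefSeq (GRCh38.p14) were found for 9 of the 10 genes and were searched in the 250 bases before the first listed start. Those of EGR1 and DUSP1 are printed because they carry motifs of factors that act before any new protein is made. EGR1 (chr5:138465229-138465478, + strand) held a pair of CArG boxes, the motif of serum response factor, at -105 to -96 and at -83 to -74 from the start. DUSP1 (chr5:172771196-172771445, - strand) held 1 cAMP response element, TGACGTCA, at -125 to -118. The capitals mark these matches.
EGR1: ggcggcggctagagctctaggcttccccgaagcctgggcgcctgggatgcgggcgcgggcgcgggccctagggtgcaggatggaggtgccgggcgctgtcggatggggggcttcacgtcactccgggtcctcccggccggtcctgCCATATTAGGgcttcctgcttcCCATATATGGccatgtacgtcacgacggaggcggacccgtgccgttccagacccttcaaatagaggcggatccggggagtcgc
DUSP1: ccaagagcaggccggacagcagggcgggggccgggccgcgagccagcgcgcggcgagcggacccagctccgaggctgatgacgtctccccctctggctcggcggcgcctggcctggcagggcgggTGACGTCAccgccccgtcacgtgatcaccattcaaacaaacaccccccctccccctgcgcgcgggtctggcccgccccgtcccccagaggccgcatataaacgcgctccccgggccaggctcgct

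Among 27305 promoters of the same length, a CArG box on either strand was in 1.14% and TGACGTCA in 1.77%, and each was in 1 of the 9. A further CArG box lay 71 to 62 bases before the third listed start of EGR2. TATAAA on the strand of the gene was in 4 of the 9 (FOS, FOSB, JUNB and DUSP1, between 33 and 25 bases before the start) against 7.17% of all promoters. GGGCGG on either strand was in 6 of the 9 against 42.3%. The AP-1 site itself, TGACTCA or TGAGTCA on either strand, was in none of the 9 windows and in 4.16% of all. No match overlapped another in the first-start windows.

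All 10 genes gave a signal well above background, the scanner software's flag for a spot, in at least 4 of the 8 channels. Of the 13 probes, 10 did so in all 8 channels. The exceptions were CD69, FOS and EGR2, and in each case the channels that missed were of T. Across the arrays the share of spots well above background was 54.1% in sponge T labelled with Cy5 and 61.0% to 65.7% in the other 7 channels, and no spot was saturated. The CD69 and JUN probes are printed 10 times per array, and the other members' probes once. Markers of the labelled cell type were present, with all 7 Hodgkin cell line markers (among them TNFRSF8, which encodes CD30, and IRF4) detected in T, against 4 of 5 B cell, 2 of 3 T cell and 1 of 3 myeloid markers. CD3D, LYZ and CD68 were not well above background in any channel, while CD3E and CD2 were in all 4 channels of T. MIR155HG, the host transcript of miR-155, was lower in sponge cells in T by -0.63 ± 0.12 on the log2 scale and in IP by -0.38 ± 0.08.

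To see how far these transcripts were over-represented in the Ago2 precipitate, IP was compared with T within each population. No precipitation with a control antibody was among these arrays, so carry-over in the precipitate cannot be told apart from Ago2 binding. In EV cells, 7 of the 10 genes had an IP/T ratio of 2 or more (FOS, JUN, JUNB, EGR1, IER5, DUSP1 and CD69), where 18.4% of the 12178 named genes detected in at least 4 channels did. With each gene at its brightest probe, no member had a T/IP ratio of 2 or more in EV cells, against 18.9% of all genes. Brightness was taken over all channels, those of IP included, and for IER5 this choice sets the direction. The other IER5 probe was brighter in EV T (15.31 against 14.04) and had a T/IP ratio of 8.92 in EV cells. The place of IER5 in the counts of both populations therefore rests on the probe choice. So does that of JUNB in EV cells, where its other probe had an IP/T ratio of 1.83. In sponge cells 6 of the 10 reached an IP/T ratio of 2 (the same genes without JUN) against 18.5%, and 1 of the 10, FOSB, reached a T/IP ratio of 2 against 18.1%. The median log2 IP/T over the 10 genes was 1.75 in EV cells (1.76 and 1.49 in the 2 orientations) and 1.33 in sponge cells (1.52 and 1.19), beside -0.16 and -0.14 over all genes. These counts and medians take in CD69, which had none of its 4 T channels well above background and passed the 4-channel filter through IP alone, and FOS, which had 1 of 4. With another background correction (normexp, below), neither FOS nor FOSB was past 2-fold in either population. Over the 7 members measured in all 8 channels, 5 had an IP/T ratio of 2 or more in EV and 4 in sponge cells, with medians of 1.74 and 1.49.

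**Figure D1:**
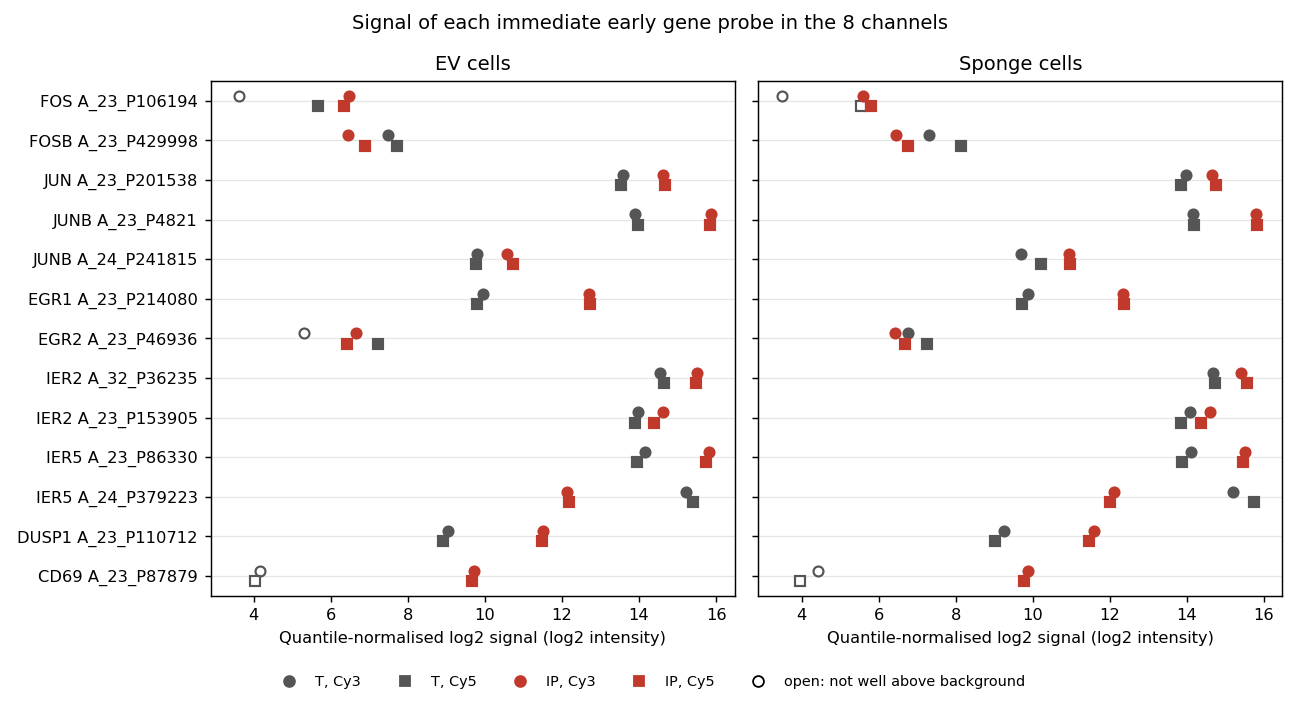
Quantile-normalised log2 signal (x axis) of the 13 probes (y axis) in EV cells (left) and sponge cells (right). Circles are Cy3 and squares Cy5, T is grey and IP red, and open symbols are channels in which the probe was not well above background. IP lies to the right of T for most probes, CD69 T is open in all 4 channels, and the IER5 probes lie in opposite order.

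Among the genes whose products form AP-1, JUN and JUNB were the bright ones. JUN encodes the partner that binds DNA alone or with FOS. Its log2 signal was 13.58 (Cy3) and 13.52 (Cy5) in EV T and 14.63 and 14.66 in EV IP, and 13.97 and 13.86 in sponge T and 14.65 and 14.75 in sponge IP. IP was above T in every channel pair, and no T channel overlapped an IP channel. The log2 IP/T of JUN was 1.09 ± 0.02 in EV cells, a ratio of 2.13, and 0.78 ± 0.0088 in sponge cells, a ratio of 1.72. The 8 to 10 spots used for the JUN probe scattered by an SD of at most 0.06 on the log2 scale in any channel. JUNB, a JUN relative that binds the same sites, gave 13.90 and 13.98 in EV T and 15.86 and 15.83 in EV IP at its brighter probe (A_23_P4821). In sponge cells it gave 14.15 and 14.18 in T and 15.78 and 15.83 in IP. The log2 IP/T was 1.91 ± 0.04 (EV) and 1.64 ± 0.06 (sponge), both well past 2-fold in both orientations.

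FOS and FOSB, which need a JUN partner, were dim, and their mean ratios on the quantile scale went opposite ways. The FOS probe gave 3.62 (Cy3) and 5.67 (Cy5) in EV T and 6.48 and 6.36 in EV IP, and 3.50 and 5.54 in sponge T and 5.58 and 5.79 in sponge IP. Only EV T in Cy5 was well above background among its 4 T channels, while all 4 IP channels were. In the orientation with that T channel the log2 IP/T in EV cells was 0.80, below 2-fold, and in the other, where T was not measured above background, it was 2.74. In sponge cells T has only an upper bound, which put IP at least 1.19-fold above T after loess and Aquantile normalisation of the processed signals, at least 1.06-fold on the quantile scale, and gave no bound above 1 with normexp background correction (offset 50). FOSB was well above background in all 8 channels, with 7.47 and 7.72 in EV T, 6.45 and 6.90 in EV IP, 7.30 and 8.13 in sponge T and 6.45 and 6.77 in sponge IP. T was above IP in both orientations of both populations, with means of -0.93 ± 0.49 for EV (a T/IP ratio of 1.90) and -1.10 ± 0.82 for sponge cells (2.15). The orientations of FOSB, -0.52 and -1.68 in sponge cells, lay on both sides of 2-fold. With normexp the log2 IP/T of FOS in EV cells was 0.03 to 0.13. That of FOSB was -0.20 to -0.17 (EV) and -0.26 to -0.24 (sponge). The size of both ratios therefore depends on how the background of these dim probes was treated.

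EGR1 and EGR2, zinc finger transcription factors that are induced with FOS, gave unlike ratios. EGR1 gave 9.94 and 9.80 in EV T and 12.70 and 12.72 in EV IP, and 9.87 and 9.71 in sponge T and 12.34 and 12.38 in sponge IP. Its IP signal was far above T in every channel pair. The log2 IP/T was 2.83 ± 0.08 in EV cells, a ratio of 7.12 that was above 97.6% of all genes, and 2.57 ± 0.09 in sponge cells, a ratio of 5.94. With normexp, which lifts all low signals, it was lower, at 2.15 to 2.20 (EV) and 1.81 to 1.84 (sponge). EGR2 gave 5.30 and 7.23 in EV T, 6.64 and 6.42 in EV IP, 6.75 and 7.27 in sponge T and 6.43 and 6.68 in sponge IP. Its Cy3 signal in EV T was not well above background, and the log2 IP/T in EV cells went from 1.12 in the orientation with that channel to -0.59 in the other. With all channels measured, sponge cells gave -0.45 ± 0.54, so that no enrichment or depletion of EGR2 past the spread between orientations was seen.

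IER2 and IER5 encode nuclear proteins of the immediate early response, and DUSP1 a phosphatase that switches off MAP kinases. The brighter IER2 probe (A_32_P36235) gave 14.54 and 14.66 in EV T and 15.51 and 15.48 in EV IP, and 14.66 and 14.72 in sponge T and 15.40 and 15.55 in sponge IP. IP was above T throughout, yet short of 2-fold, with a log2 IP/T of 0.90 ± 0.06 (EV) and 0.78 ± 0.15 (sponge). IER5 at its brighter probe (A_23_P86330) gave 14.14 and 13.94 in EV T and 15.82 and 15.73 in EV IP, and 14.10 and 13.87 in sponge T and 15.50 and 15.45 in sponge IP. Its log2 IP/T was 1.74 ± 0.20 (EV) and 1.49 ± 0.20 (sponge), past 2-fold in both orientations. DUSP1 gave 9.04 and 8.91 in EV T and 11.51 and 11.49 in EV IP, and 9.25 and 9.01 in sponge T and 11.60 and 11.46 in sponge IP. With a log2 IP/T of 2.53 ± 0.11 (EV) and 2.40 ± 0.26 (sponge), DUSP1 lay above 96.5% and 95.9% of all genes. With normexp its log2 IP/T was 1.42 to 1.61 (EV) and 1.36 to 1.41 (sponge), still past 2-fold.

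CD69, a surface lectin that appears early after the activation of lymphocytes, was seen in IP alone. In T its probe was not well above background in any of the 4 channels, with processed intensities of 17.3 (Cy3) and 16.7 (Cy5) in EV cells and 24.1 and 17.3 in sponge cells. The lowest intensity of any spot well above background in those channels was 46.1, 43.0, 39.6 and 49.0. In IP the processed intensity of CD69 was 925 and 920 for EV and 725 and 941 for sponge cells, and each of the 10 spots was well above background in each IP channel. On the normalised log2 scale this was 9.73 and 9.68 in EV IP and 9.88 and 9.76 in sponge IP, against 4.16 and 4.04 in EV T and 4.43 and 3.96 in sponge T. The T values bound the level from above only, so that IP was at least 21.1-fold above T in EV cells and at least 20.9-fold in sponge cells (processed signals, loess and Aquantile). On the quantile scale the bounds were at least 19.3-fold and at least 18.5-fold. With normexp and an offset of 50 they were at least 2.38-fold and at least 1.95-fold. Across the 9 or 10 spots used the SD was 0.07 to 0.10 on the log2 scale in IP and 0.32 to 0.69 in T.

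**Figure D2:**
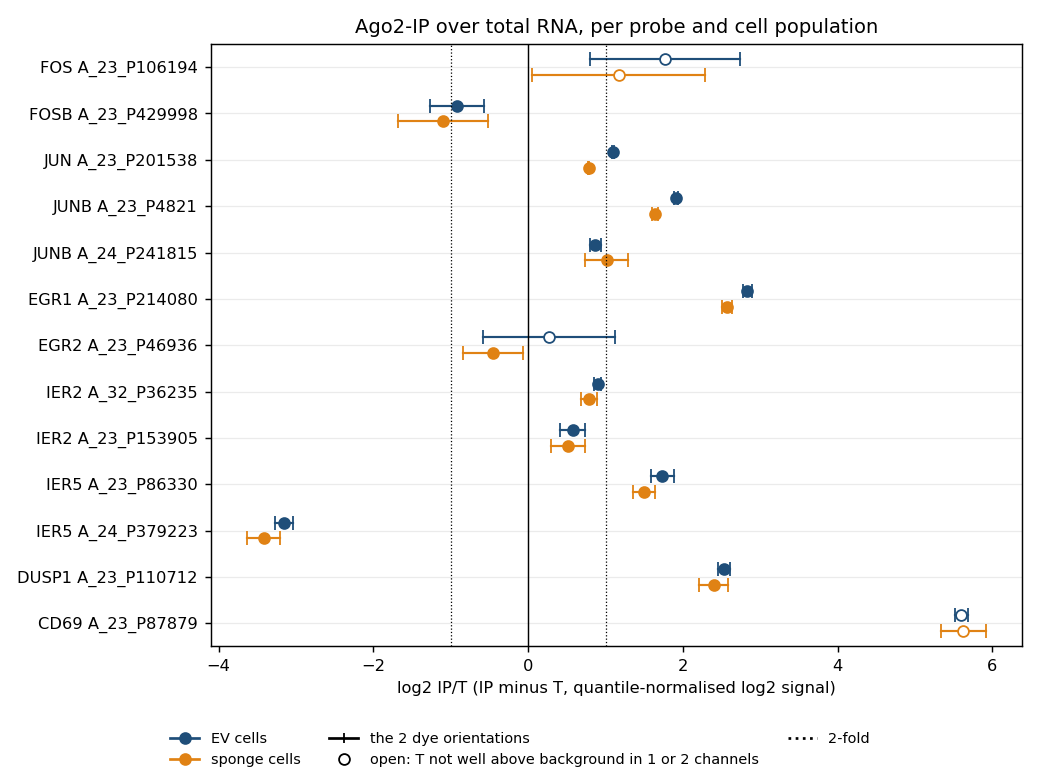
Log2 IP/T (x axis) of the 13 probes (y axis) in EV cells (blue) and sponge cells (orange). Circles are the mean of the 2 dye orientations, the ends of each bar are the orientations, dotted lines mark 2-fold, and open circles have T not well above background in 1 or both channels. CD69 lies far to the right at 5.60 and 5.62 with unmeasured T, EGR1 and DUSP1 follow, and the second IER5 probe lies at -3.16 and -3.42.

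In order of mean log2 IP/T in EV cells the genes ran from CD69, known only by its bound, through EGR1 (2.83), DUSP1 (2.53), JUNB (1.91), FOS (1.77), IER5 (1.74), JUN (1.09), IER2 (0.90) and EGR2 (0.27) to FOSB (-0.93). The orientation values of EGR1 (2.77 and 2.89) and DUSP1 (2.45 and 2.60) did not overlap, nor did those of JUN (1.08 and 1.10) and IER2 (0.94 and 0.86). JUNB (1.94 and 1.88) and IER5 (1.59 and 1.88) differed by less than the SD of IER5. FOS and EGR2 could not be placed against their neighbours, since their orientations lay at 2.74 and 0.80 and at 1.12 and -0.59, and FOSB and EGR2 overlapped.

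IER2, JUNB and IER5 were measured by a pair of probes each, and these did not always give the same ratio. For IER2 the dimmer probe (A_23_P153905) had a log2 IP/T of 0.58 ± 0.23 (EV) and 0.52 ± 0.31 (sponge), which differed from the brighter probe by about the spread between orientations. For JUNB the dimmer probe (A_24_P241815) gave 9.78 and 9.77 in EV T and 10.58 and 10.72 in EV IP, and 9.68 and 10.20 in sponge T and 10.94 and 10.97 in sponge IP. In EV cells its log2 IP/T was 0.87 ± 0.09, 1.04 ± 0.06 below the brighter probe, and 1.01 ± 0.39 in sponge cells. The IER5 probes went opposite ways. The second IER5 probe (A_24_P379223) gave 15.22 and 15.39 in EV T but 12.12 and 12.19 in EV IP, and 15.20 and 15.74 in sponge T but 12.11 and 11.99 in sponge IP. T was above IP in every channel pair, with means of -3.16 ± 0.17 for EV (a T/IP ratio of 8.92) and -3.42 ± 0.30 in sponge cells. The difference between the IER5 probes was 4.89 ± 0.38 on the log2 scale in EV cells and 4.91 ± 0.50 in sponge cells. Among 3459 genes with at least 2 probes that were detected and within 2-fold between dyes, the median span of log2 IP/T in EV cells was 0.379, and 4 genes, IER5 included, had a span this large. The array names both probes by one IER5 transcript, and where each lies on it was not analysed here. A statement on IER5 therefore depends on the probe, and the counts above use the brighter one over all channels.

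To see whether the sponge altered these levels, sponge cells were compared with EV cells in T, in IP and in IP/T. In T, 0 of the 10 genes differed by 2-fold or more in one direction on both dyes, against 0.813% of all genes, and in IP 0 of the 10 did, against 0.386%. In these bulk samples fewer expressing cells and less RNA per cell cannot be told apart. T was higher in sponge cells in both dyes for 5 of the 10 genes (JUN, JUNB, EGR2, IER2 and DUSP1) against 28.3% of all genes, and IP was lower in both dyes for 4 of the 10 (FOS, JUNB, EGR1 and IER5) against 35.9%. IP/T was lower in sponge cells in both orientations for 8 of the 10 against 29.6%, and for 6 of the 7 measured in all 8 channels. The exceptions were CD69 and FOSB, whose orientations had opposite signs. These counts depend on how the channels are paired. Paired by dye, the change was -1.66 (Cy3) and 0.22 (Cy5) for EGR2, and -0.24 and 0.01 for the brighter IER2 probe. Neither gene would then be counted as lower, and the share of all genes was not computed with that pairing. The median change in log2 IP/T over the 10 genes was -0.25 in each orientation, beside 0.0044 over all genes, and the middle 95% of all genes ran from -0.51 to 0.54.

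**Figure D3:**
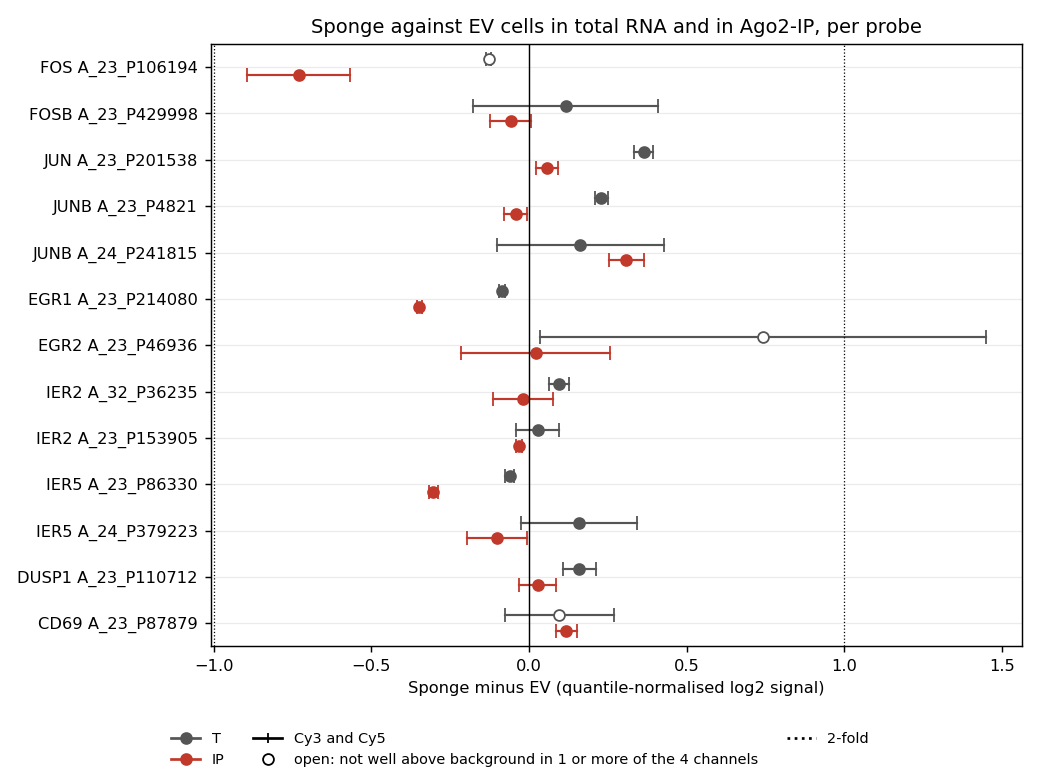
Sponge minus EV on the quantile-normalised log2 scale (x axis) for the 13 probes (y axis), in T (grey) and in IP (red). Circles are the mean of the 2 dyes, bar ends are Cy3 and Cy5, dotted lines mark 2-fold, and open circles have a channel not well above background. No mean reaches 2-fold, JUN and the brighter JUNB probe are higher in T with IP near 0, and EGR1 and the brighter IER5 probe are lower in IP with T near 0.

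The lower ratios came about in different ways. For JUN, T was higher in sponge cells by 0.36 ± 0.04 on the log2 scale, a ratio of 1.29 that 702 of the 12178 genes exceeded, while IP differed by 0.06 ± 0.05. The change in log2 IP/T of JUN was -0.31 ± 0.0070. JUNB at its brighter probe had T higher by 0.23 ± 0.03, IP at -0.04 ± 0.05 and a change of -0.27 ± 0.02, but its dimmer probe had IP higher by 0.31 ± 0.08 and a change of 0.15 ± 0.29. For EGR1 the difference was in IP, at -0.35 ± 0.01, with T at -0.09 ± 0.01 and a change of -0.26 ± 0.0030. The brighter IER5 probe was like EGR1, with IP at -0.30 ± 0.02, T at -0.06 ± 0.02 and a change of -0.24 ± 0.0013. With normexp its T was at -0.22 to -0.21 and its change at -0.17 to -0.13. How its change divides between T and IP therefore depends on the background correction. Paired by dye instead of by orientation, the changes were -0.27 (Cy3) and -0.21 (Cy5) for this probe. For JUN they were -0.37 and -0.24. The second IER5 probe, which had the opposite IP/T, had a change of -0.26 ± 0.13. Which of the IER5 probes follows the IER5 messenger was not tested.

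For the other members the difference lay closer to the spread between dyes or rested on dim channels. FOS had IP lower by 0.89 (Cy3) and 0.57 (Cy5), a mean of -0.73 ± 0.23 that was below all but 0.484% of genes, in channels that were all well above background. With normexp this difference was -0.09 to -0.06, so its size depends on how the background of this dim probe was treated. Its change in log2 IP/T of -0.60 ± 0.22 takes in T channels that were not. EGR2 had T higher by 1.45 in Cy3, where the EV signal was not above background, and by 0.04 in Cy5, where both signals were. DUSP1 had a change in log2 IP/T of -0.13 ± 0.16, with -0.24 and -0.02 in the orientations, and IER2 had -0.11 ± 0.09. CD69 differed by 0.12 ± 0.05 in IP, and its change in log2 IP/T of 0.02 ± 0.29 lay within the spread between orientations with T unmeasured on both sides. FOSB had a change of -0.18 ± 0.32, likewise within the spread.

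**Figure D4:**
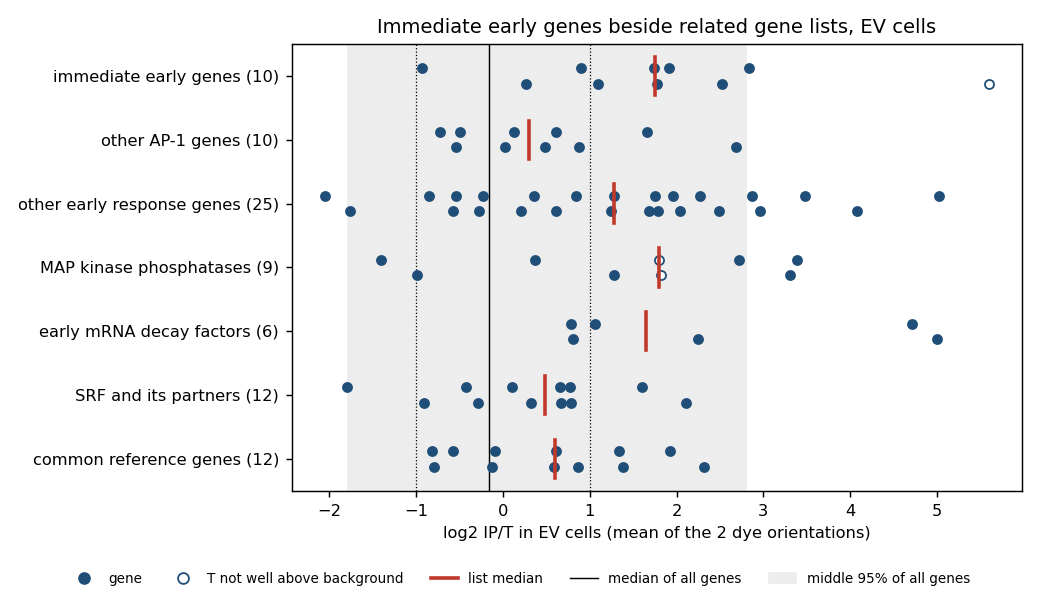
Log2 IP/T in EV cells (x axis) of the immediate early genes and of 6 related gene lists (y axis, number of genes detected in at least 4 channels in brackets). Each point is 1 gene at its brightest probe, open where no T channel was well above background, red bars are list medians, the grey band is the middle 95% of all genes, and dotted lines mark 2-fold. Each list holds genes on both sides of 2-fold enrichment, and the phosphatase median falls on a gene whose T was not measured above background.

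Other genes of the same response were taken from lists. Of 25 detected early response genes outside the 10, 14 had an IP/T ratio of 2 or more in EV cells and 13 did in sponge cells, and their median in EV cells was 1.28 on the log2 scale. The highest were SGK1, a kinase induced by serum, at 5.02 ± 0.21, TRIB1, a pseudokinase, at 4.07 ± 0.20 and IER3 at 3.48 ± 0.18, and the lowest was SIK1, a salt-inducible kinase, at -2.05 ± 0.48. A lower IP/T ratio in sponge cells in both orientations, seen in 29.6% of all genes, was found in 10 of these 25 genes (median change -0.05), in 6 of the 9 MAP kinase phosphatases related to DUSP1 (-0.18) and in 4 of the 6 early induced mRNA decay factors (-0.14). Among the 6 phosphatases with all 4 T channels well above background, it was found in 4 (-0.16). Of the 9 phosphatases, 6 reached an IP/T ratio of 2 in each population, but DUSP7 and DUSP16 among them had no T channel well above background, and of the 6 with all 4 T channels measured 3 reached it. The highest in EV cells were DUSP5 (3.39 ± 0.36, T well above background in 3 of its 4 channels), DUSP2 (3.30 ± 0.0044) and DUSP10 (2.72 ± 0.01), while DUSP9 and DUSP4 were at -1.40 ± 0.46 and -0.99 ± 0.28. The early induced mRNA decay factors held BTG2 (5.00 ± 0.06), which recruits deadenylases, and ZFP36 (4.71 ± 0.01), which binds AU-rich messengers, and 4 of 6 reached 2-fold in EV cells.

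Of the other AP-1 genes 10 were detected, and 2 had an IP/T ratio of 2 or more in both populations, FOSL1 (T well above background in 3 of 4 channels) at 2.68 ± 0.17 and BATF2 at 1.66 ± 0.11 in EV cells, and the median was 0.30. FOSL2, a FOS relative, was at -0.50 ± 0.90, BATF, an AP-1 partner in lymphocytes, at -0.54 ± 0.20, and MAF was lowest at -0.72 ± 0.08. SRF and its partners, which switch immediate early genes on, had a median of 0.49 over 12 genes, with ELK3 highest at 2.11 ± 0.10. Among 12 common reference genes 4 reached 2-fold, with RPLP0 highest at 2.32 ± 0.03 and GUSB lowest at -0.82 ± 0.06. No gene of these lists differed by 2-fold or more between the populations, with both dyes agreeing in sign, in T or in IP.

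The genes whose pattern over the 4 RNA samples was most like that of CD69, by the smallest Euclidean distance between log2 values centred on each gene's mean, were WASL (0.51), MAP4K3 (0.51), CFL2 (0.57), ZNF254 (0.58) and SGK1 (0.62). Since the T values of CD69 were not well above background, these distances rest in part on unmeasured levels and their order carries no weight. WASL had no T channel well above background and MAP4K3 had 1 of 4, whereas CFL2, ZNF254 and SGK1 had all 4. Measured in all channels, the log2 IP/T of CFL2 was 5.43 ± 0.13 (EV) and 4.84 ± 0.34 (sponge), and that of SGK1 5.02 ± 0.21 and 4.98 ± 0.05. SGK1 is the one of the 5 that is also on the list of early response genes.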

How the data were processed

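The authors hybridised labelled RNA to two-colour whole genome arrays and deposited spot intensity values from Agilent Feature Extraction (10.5.1.1 per the labels, 10.7.3.1 per the file headers), background-subtracted and dye-corrected. Normalised log2 values that the authors deposited for the whole series served as an alternative. Log ratio columns of the scanner files, which set red against green on 1 array, were not used.

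Control spots and outlier spots were left out, spots of a probe were averaged, and log2 processed signals were quantile normalised over the 8 channels, as in the study's methods. Cy3 and Cy5 were averaged. The file of each of the 4 arrays was given under each of its labelled samples and was used once. Detected means well above background in at least 4 of 8 channels. Kept probes (22469) were also within 2-fold between dyes in each RNA, which 8 of the 10 members were (FOS and EGR2 were not). Symbols came from RefSeq (GRCh38.p14), which named 23958 of 41000 probes. Genomic positions of probes, on an older build, were not analysed here. A gene was represented by its brightest probe. For a probe not well above background in a group, each such channel was set to the lowest signal of any probe well above background there, or to its own signal if higher, and the brighter mean over this floor is the bound (processed signals, loess and Aquantile).

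All 10 members were named with every probe, and, per related list, genes were drawn from the 3 highest and 3 lowest by log2 IP/T in EV cells. The members, lists and rules were chosen with earlier results of these data known. Alternatives changed the background correction (limma 3.58.1, normexp on median signals, since the files hold no mean signals), the normalisation, dye, orientation, probe choice and detection filter. The number of arrays limits the precision. Python 3.11.15, numpy 2.4.6, pandas 2.3.3 and R 4.3.3 were used, and the scripts were tested on simulated data.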

Additional observations from a re-analysis of the deposited data

How the results depend on the processing

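With 1 RNA sample per group, no alternative gives a test. Under the alternatives that keep all 10 members, 6 to 8 had an IP/T ratio of 2 or more in EV and 4 to 6 in sponge cells. The counts were 6 (EV) and 5 (sponge) of the 8 members in the authors' values or within 2-fold between dyes, and 5 and 4 of the 7 detected in all 8 channels. No alternative made a member differ by 2-fold in IP. In T, 1 member (EGR2) did so with arrays that hold IP in Cy5 only and 1 (EGR2) with Cy3 labels only, both of which rest on the EV T channel in Cy3 that was not above background. The median change in log2 IP/T of the members stayed below 0 under every alternative. The median log2 IP/T in EV cells, in sponge cells and the median change were 1.24, 0.94 and -0.18 with normexp, loess and Aquantile, 1.17, 1.02 and -0.10 with normexp and quantile normalisation, and 1.24, 0.98 and -0.21 with the median over a gene's probes. The median change was -0.27 with 75th percentile scaling, -0.26 without further normalisation, -0.28 with Cy3 labels only, -0.24 over the 7 members detected in all 8 channels, and -0.31 with loess and Aquantile on processed signals, an alternative chosen after seeing the data. The sponge median and the median change were 1.57 and -0.21 in the authors' values, which hold 8 members, and 1.57 and -0.21 over the 8 members also within 2-fold between dyes. The EV median was 1.49 with IP in Cy3 only, and 1.46 with Cy5 labels only, where the change was -0.21. The log2 IP/T of FOS in sponge cells turned to -0.054 with normexp, loess and Aquantile, and the cause was not tested. The loess settings moved the median log2 IP/T of all genes from -0.16 to -0.0074 (normexp) and -0.02 (processed signals) in EV cells, and without further normalisation sponge minus EV moved by -0.27 in T and -0.26 in IP for the median gene. Of single-probe values under an alternative, 485 moved by no more than the spread between orientations, 154 moved by more, and 1 past 2-fold changed sign. The median change of the members moved by more than its own spread of 0.0041 under 11 alternatives and stayed within it under 3. Small differences between the populations changed sign under some alternatives. The change in IP/T was below 0 under every alternative for JUN, EGR1, DUSP1, FOS and the brighter probes of JUNB and IER5, while that of CD69 kept its sign in 4 of 10. No paired analysis was possible because each group holds 1 RNA sample. Depth is not given by arrays, and signal over background limits CD69 and FOS in T.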
